A study of Mus musculus with 12 samples.

Results

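The genes described here are 9 kallikrein-related peptidases, Klk5, Klk6, Klk7, Klk8, Klk9, Klk10, Klk11, Klk13 and Klk14, and the serine protease Prss27, in mouse ear skin after injection of IL-17A, IL-36γ or both. They were taken by symbol from a list that was chosen with earlier results of these data known. They were matched to their Ensembl identifiers through the symbols in the deposited tables, and make up 10 of the 50684 genes counted. All 10 were among the 19408 genes with enough reads over the 12 libraries to be tested, Klk14 only through the combination. Female C57BL/6 mice that were 8 weeks old received 5 µL of PBS, of 1 µg IL-17A, of 1 µg IL-36γ or of 1 µg of each cytokine intradermally into the ear pinnae, the treatment was continued over consecutive days, and ears were taken on day 4. Both cytokines were recombinant murine proteins in PBS. RNA of a piece of the whole ear was sequenced from 3 of the 5 mice in each of the 4 groups, with 25293468 to 34759293 counted reads per library. The tissue holds epidermis together with dermis, muscle and cartilage, so fewer cells of a type and less RNA per cell cannot be told apart.

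Kallikrein-related peptidases are secreted serine proteases that are made as inactive precursors and are activated by cleavage, often by one another. In the outer epidermis they cut the proteins that hold corneocytes together, and so take part in shedding of the stratum corneum. Inhibitors of the Spink and serpin families restrain them, and some of them also cleave protease-activated receptors and precursors of antimicrobial peptides. Prss27, also called marapsin, is a trypsin-like serine protease of stratified epithelia that is not encoded in the kallikrein cluster.

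In the combined treatment 7 of the 10 genes rose against PBS (7.35% of all genes tested), after IL-36γ alone 6 rose (5.11%), and after IL-17A alone 1 rose (1.07%). A gene was called raised when its adjusted p-value was below 0.05 and its log2 fold change above 1. Klk13 changed most, with a log2 fold change of 5.48 with both cytokines, whereas Klk5 had one of 0.07. No member was called lowered, in comparisons that lowered 6.06%, 1.98% and 1.03% of all genes in the same order. The 3 comparisons use the same 3 PBS mice and are therefore not independent of each other. Since the list was chosen with earlier results of these data known, an excess over all genes is no independent support. The counts for IL-36γ and for the combination include Klk14, which passed the read filter only through the combination.

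The first genes to be considered are those of corneocyte shedding, Klk5, Klk7 and Klk14. Klk7, a chymotrypsin-like protease that cleaves corneodesmosomal proteins, was the most abundant member. It was measured at 473, 324 and 339 CPM (read counts scaled to the size of the library) in the PBS mice, at 366, 342 and 418 after IL-17A, at 706, 679 and 506 after IL-36γ and at 849, 581 and 803 with both. Every IL-36γ library and every library of the combination lay above every PBS library, and the IL-17A libraries overlapped with PBS. Against PBS the log2 fold change of Klk7 was 0.73 ± 0.18 (SE, n = 3 per group, adjusted p = 0.0114, edgeR quasi-likelihood test) for IL-36γ and 0.98 ± 0.18 (adjusted p = 0.00121) for the combination. Both passed the adjusted p-value but stayed below the fold threshold. Klk5 is a trypsin-like protease that can activate the precursor of Klk7. It was measured at 91.9, 50.5 and 58.7 CPM in PBS, at 52.0, 57.9 and 69.6 after IL-17A, at 81.5, 69.8 and 70.9 after IL-36γ and at 81.2, 54.7 and 74.8 with both. The libraries of all groups overlapped with PBS. For the combination against PBS its log2 fold change of 0.07 had a 95% confidence interval from −0.38 to 0.51, so that an increase by 1 on the log2 scale lay outside the interval.

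Klk14, a further trypsin-like kallikrein, was close to the limit of detection. It had 4, 0 and 3 reads in the PBS libraries, 5, 6 and 2 after IL-17A, 9, 14 and 8 after IL-36γ and 41, 30 and 16 with both cytokines. The treated libraries that held IL-36γ all exceeded PBS, and those of the combination all exceeded those of IL-36γ alone. The log2 fold change against PBS was 2.26 ± 0.70 (adjusted p = 0.0311) for IL-36γ and 3.91 ± 0.60 (adjusted p = 0.000344) for the combination. Klk14 passed the read filter only through the libraries of the combination. When only PBS and IL-36γ, or only PBS and IL-17A, were fitted, it had too few reads to be tested. The IL-36γ call was lost when PBS replicate 2, PBS replicate 3, IL-36γ replicate 1 or IL-36γ replicate 2 was left out, with adjusted p-values of 0.0896, 0.0706, 0.0664 and 0.101. Of the 1172 windows of one read length, 76 bases, in the Klk14 transcripts, 220 occur on either strand in transcripts of other genes as well. Those genes include the antisense RNA 2310002F09Rik, opposite which 287 of the Klk14 exon bases lie, so these counts overlap. That RNA was measured at 2.96 to 4.90 CPM over the 12 libraries, above Klk14 in each of them, and had a log2 fold change of −0.34 ± 0.15 (adjusted p = 0.0874) for the combination against PBS.

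Klk8, known as neuropsin and also expressed in the nervous system, was measured at 48.6, 25.9 and 29.6 CPM in PBS, at 53.1, 36.9 and 46.3 after IL-17A, at 97.3, 84.9 and 61.1 after IL-36γ and at 129, 101 and 98.7 with both. The 4 groups stood in that order, with an overlap only between PBS and IL-17A. Klk8 rose by 1.23 ± 0.24 on the log2 scale after IL-36γ (adjusted p = 0.0031) and by 1.66 ± 0.24 with both (adjusted p = 0.000225). It shares 382 exon bases, 24.8% of its exon length, with the same antisense RNA on the opposite strand. Since the strand setting used for read counting is not given in the sources used here, reads of the pair cannot be told apart in that stretch.

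Klk6, Klk9 and Klk13 also rose with IL-36γ and with the combination. Klk6, a trypsin-like protease first known from brain and also found in skin, was measured at 35.7, 19.4 and 15.9 CPM in PBS, at 57.1, 17.1 and 19.7 after IL-17A, at 131, 209 and 79.3 after IL-36γ and at 409, 211 and 230 with both. A single IL-17A library, replicate 1, lay above the PBS range, and the combination exceeded IL-36γ alone in every library. Klk6 rose by 2.56 ± 0.51 on the log2 scale with IL-36γ alone (adjusted p = 0.00377), and the combination gave 3.58 ± 0.53 (adjusted p = 0.000272).

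Klk9, a less studied kallikrein, was measured at 19.3, 11.1 and 8.97 CPM in PBS, at 29.3, 13.7 and 17.3 after IL-17A, at 98.0, 127 and 59.5 after IL-36γ and at 230, 108 and 133 with both. The lowest value with IL-36γ was above the highest value without it, and the groups with IL-36γ overlapped with each other. The gene rose by 2.85 ± 0.40 on the log2 scale after IL-36γ (adjusted p = 0.000542) and by 3.58 ± 0.41 with both (adjusted p = 6.62e-05).

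Klk13, a trypsin-like protease of stratified epithelia, was measured at 3.85, 1.84 and 1.36 CPM in PBS, at 14.6, 3.99 and 9.45 after IL-17A, at 50.9, 63.1 and 27.1 after IL-36γ and at 147, 101 and 69.8 with both. No pair of groups overlapped. With IL-17A alone Klk13 rose 3.93-fold (95% confidence interval 1.77 to 8.73, adjusted p = 0.0391), with IL-36γ 19.9-fold (8.94 to 44.1, adjusted p = 0.000237) and with both 44.7-fold (19.6 to 102, adjusted p = 2.96e-05).

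The remaining kallikreins changed less. Klk11 was measured at 33.9, 25.8 and 26.5 CPM in PBS, at 29.8, 35.9 and 37.4 after IL-17A, at 52.1, 59.3 and 43.9 after IL-36γ and at 75.1, 58.4 and 60.2 with both. Its replicates were close to each other, and it rose after both (1.17 ± 0.15 on the log2 scale, adjusted p = 0.000103), while IL-36γ alone gave 0.85 ± 0.15 (adjusted p = 0.00162), below the fold threshold. Klk10 was measured at 72.6, 39.7 and 52.0 CPM in PBS, at 31.5, 40.4 and 36.4 after IL-17A, at 62.9, 73.6 and 46.7 after IL-36γ and at 152, 80.4 and 87.0 with both. Its IL-17A mean was the lowest of the 4 groups, although these libraries overlapped with PBS (log2 fold change −0.60 ± 0.27, adjusted p = 0.146), and the combination lay above every other library. Against PBS the combination gave 0.96 ± 0.26 (adjusted p = 0.0114), just under the fold threshold.

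Prss27 was measured at 6.31, 4.53 and 2.46 CPM in PBS, at 11.4, 6.18 and 6.88 after IL-17A, at 36.6, 54.7 and 23.5 after IL-36γ and at 103, 46.5 and 54.1 with both. Every library with IL-36γ exceeded every library without it. It rose by 3.10 ± 0.43 on the log2 scale after IL-36γ (adjusted p = 0.000441) and by 3.93 ± 0.44 with both (adjusted p = 5.08e-05), values between those of Klk9 and Klk13, although it lies on another chromosome.

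**Figure D1:**
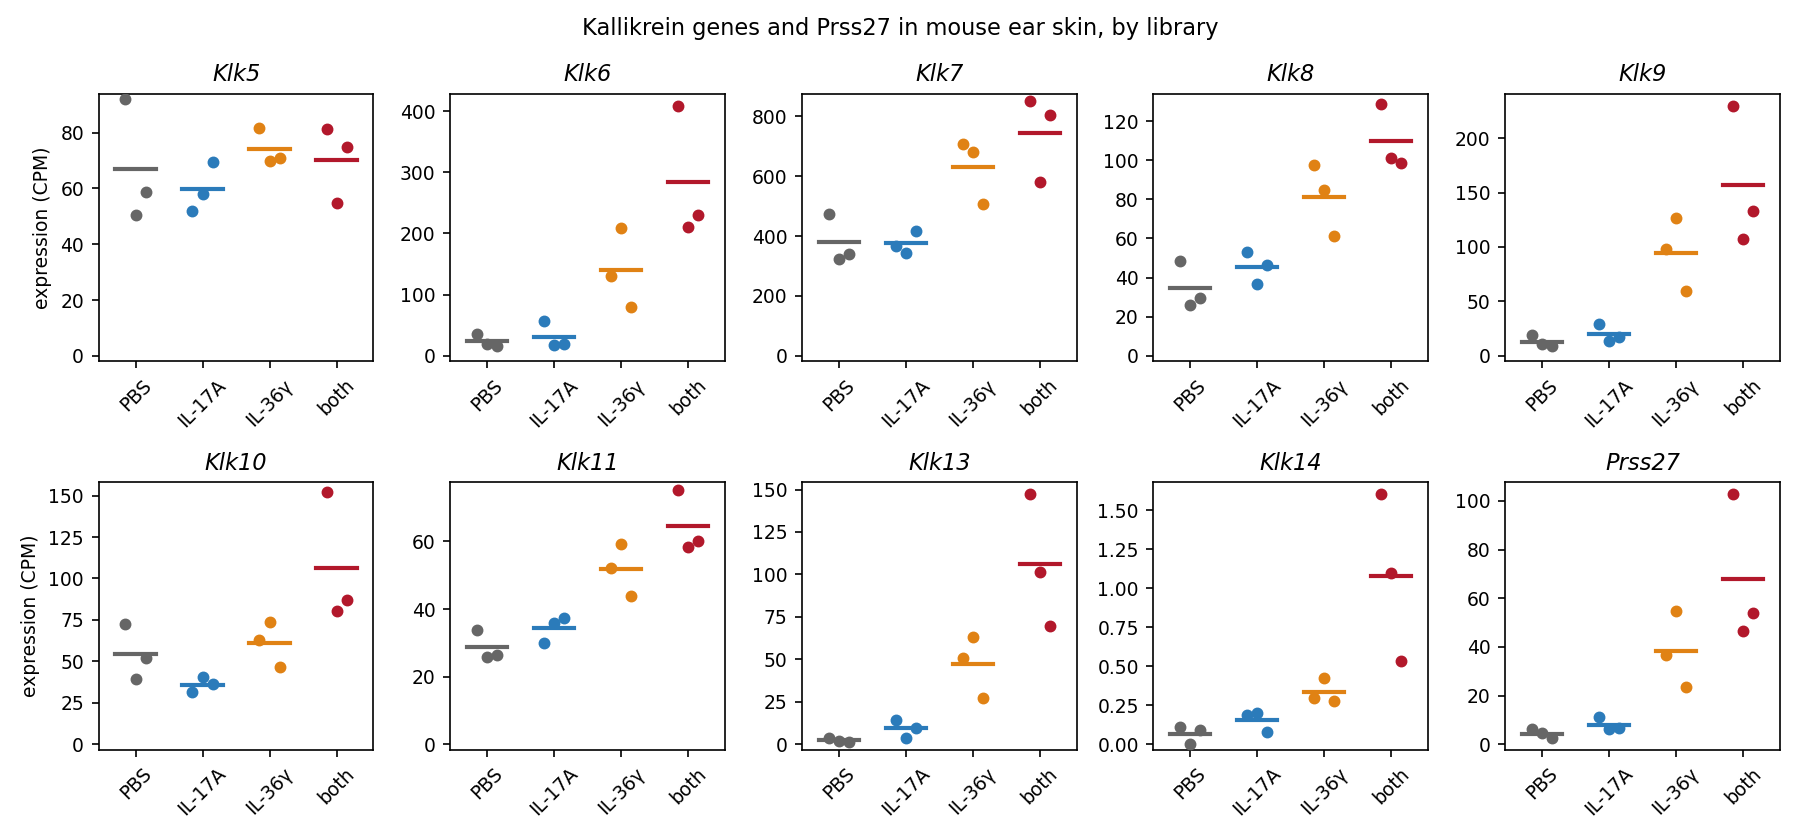
Expression in CPM (read counts scaled to library size, linear axis) of each member in the 12 libraries, by group (both stands for IL-17A + IL-36γ). Points are mice and lines are group means of 3 mice. For Klk5 each treated group overlaps with PBS, whereas all libraries with IL-36γ lie above all others for every member except Klk5 and Klk10.

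The single member called for IL-17A against PBS was Klk13. This call was lost when PBS replicate 2, PBS replicate 3, IL-17A replicate 1, IL-17A replicate 3, IL-36γ replicate 1 or replicate 2 of the combination was left out, with adjusted p-values from 0.0553 to 0.183 and log2 fold changes from 1.46 to 1.96. In IL-17A replicate 1 the summed level of 4 stress keratins was 2236 CPM, compared with 635 and 578 CPM in the other IL-17A mice, and its part in the Klk13 difference was not tested. By adjusted p-value alone 9 of 10 were higher after the combination, against 23.7% of all genes. The IL-17A libraries lay entirely above PBS for 1 member (all genes 19.6%), the IL-36γ libraries for 8 (22.4%) and those of the combination for 9 (27%). The 10 members had a median log2 fold change of 0.40 (all genes 0.04) with IL-17A, 1.74 (all genes −0.02) with IL-36γ and 2.62 (all genes −0.03) with the combination.

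The treated groups were then compared with each other. For the combination against IL-17A alone 7 members were raised, against 4.46% of all genes, namely Klk6, Klk8, Klk9, Klk10, Klk13, Klk14 and Prss27, with log2 fold changes from 1.27 for Klk8 to 3.51 for Klk13. For IL-36γ against IL-17A the raised members were Klk6, Klk9, Klk13 and Prss27, 4 of 10 against 1.25% of all genes, each with a log2 fold change between 2.16 and 2.34. That count fell to 0 without IL-17A replicate 2 and to 1, Klk9, without IL-36γ replicate 2. In the first case the 4 genes kept log2 fold changes from 1.88 to 2.08 (edgeR adjusted p-values from 0.0597 to 0.111). In the second, Klk6, Klk13 and Prss27 kept 1.75 to 2.07 (0.0523 to 0.107). The share of all genes called in these fits is not given here. The IL-36γ libraries were nevertheless above all IL-17A libraries for each of the 10 genes, a pattern shown by 15.6% of all genes.

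For the combination against IL-36γ alone no member was called by edgeR or by DESeq2, and edgeR called 0% of all genes raised. At an unadjusted p-value below 0.05 edgeR placed 4 members higher, against 5.6% of all genes. These were Klk14 (log2 fold change 1.65 ± 0.47, adjusted p = 0.16), Klk10 (0.80 ± 0.26, adjusted p = 0.204), Klk13 (1.17 ± 0.43, adjusted p = 0.24) and Klk11 (0.32 ± 0.14, adjusted p = 0.322). The libraries of the combination lay entirely above those of IL-36γ for 5 members, Klk6, Klk8, Klk10, Klk13 and Klk14, against 9.33% of all genes. The 95% confidence interval of the Klk6 difference ran from −0.03 to 2.06 and that of Prss27 from −0.00037 to 1.64 on the log2 scale, so that neither no difference nor a difference by 1 lay outside them. For Klk5 the interval ran from −0.52 to 0.37.

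Whether the cytokines together did more than the product of their single effects was asked by the interaction term, which is the log2 effect of IL-17A when added to IL-36γ minus that of IL-17A when given alone. No member passed an adjusted p-value of 0.05 in edgeR, where 0.129% of all genes were called higher, and 1 member, Klk10, had an unadjusted p-value below 0.05, against 8.58% of all genes with a higher value. A count of 1 of 10 is near that share. The change of Klk10 after IL-17A alone, which the term subtracts, was −0.60 ± 0.27. Klk10 had an interaction of 1.40 ± 0.37 (95% confidence interval 0.59 to 2.22, adjusted p = 0.0765). DESeq2 (adjusted p = 0.0296) and edgeR without the filter on low counts (adjusted p = 0.0239) called it, and its adjusted p-value ranged from 0.0239 to 0.186 over all alternatives. The other members had interactions from −0.80 ± 0.68 for Klk13 to 0.62 ± 0.68 for Klk6. Klk13 thus had the largest changes in both single treatments but not a positive interaction on the log2 scale.

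On the linear scale the sum of both single increases was compared with the increase after the combination. The sum of the single increases of Klk6 was 124 CPM and the combination gave 260 CPM, an excess of 136 ± 74.8 CPM (SE from the spread of 3 mice per group). For Klk13 the excess was 52.0 ± 25.01 CPM, for Klk9 55.1 ± 42.4 CPM, for Prss27 25.8 ± 19.9 CPM and for Klk10 64.1 ± 26.1 CPM. Only for Klk10, Klk13 and Klk14 (0.655 ± 0.315 CPM) was the excess more than 2 standard errors, and no test was made of these values. For Klk10 the sum of the single increases was −12.4 CPM, with −18.7 CPM after IL-17A alone.

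The levels of different genes were compared after division by exon length, as CPM per kilobase. The summed level of the 10 genes was 361 ± 94.5 (SD, n = 3) CPM per kilobase in PBS, 367 ± 33.0 after IL-17A, 728 ± 161 after IL-36γ and 1033 ± 268 with both, that is 2.02-fold and 2.86-fold the PBS level in the groups with IL-36γ. Klk7 held 55.7% of this sum in PBS (53.2 to 57.6% in single mice), 54.0% after IL-17A, 46.1% after IL-36γ (41.9 to 48.8%) and 38.6% with both (33.8 to 44.0%). The share of Klk6 was 4.22% in PBS, 5.55% after IL-17A, 12.3% after IL-36γ and 17.8% with both, and that of Klk9 was 2.41%, 3.67%, 8.63% and 10.04% in the same order. Klk5 went the opposite way, from 13.7% in PBS to 5.15% with both, at a nearly constant level of 50.2 and 52.6 CPM per kilobase. Klk13 remained a small part of the sum, with 0.271% in PBS and 4.48% with both. With 3 mice against 3 an exact permutation test of a share cannot go below 0.10, so none was run.

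**Figure D2:**
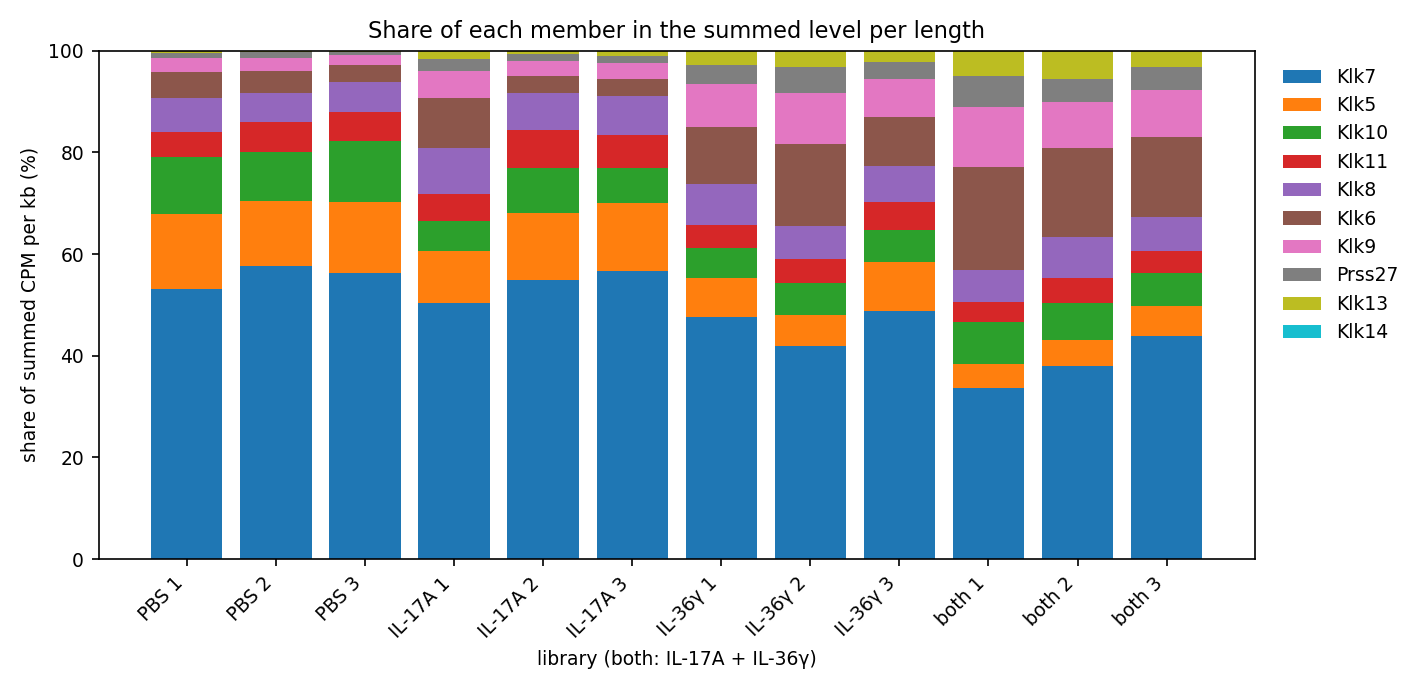
Share of each member in the summed level per length (CPM per kilobase, percent of the sum of the 10 genes) in each of the 12 libraries. Klk7 falls from 53.2 to 57.6% in the PBS mice to 33.8 to 44.0% with both cytokines, while Klk6 and Klk9 take larger shares. Klk14 is too small to be seen.

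The 9 kallikrein genes lie on the plus strand of chromosome 7 (GRCm38), from 43690418 to 43851181, a stretch of 160.8 kb with 13 annotated genes of which 10 encode proteins. The order of the protein-coding genes is Klk14, Klk13, Klk12, Klk11, Klk10, Klk9, Klk8, Klk7, Klk6 and Klk5. The response did not follow this order. Klk9, with a log2 fold change of 3.58 with both cytokines, lies between Klk10 with 0.96 and Klk8 with 1.66, and Klk6, with 3.58, between Klk7 with 0.98 and Klk5 with 0.07. Klk12, the protein-coding gene of the stretch outside the list, was measured at 0.968 CPM in PBS and 4.38 CPM after both and rose by 2.16 ± 0.42 on the log2 scale (adjusted p = 0.00144). Prss27 lies on the plus strand of chromosome 17, from 24038144 to 24045954.

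**Figure D3:**
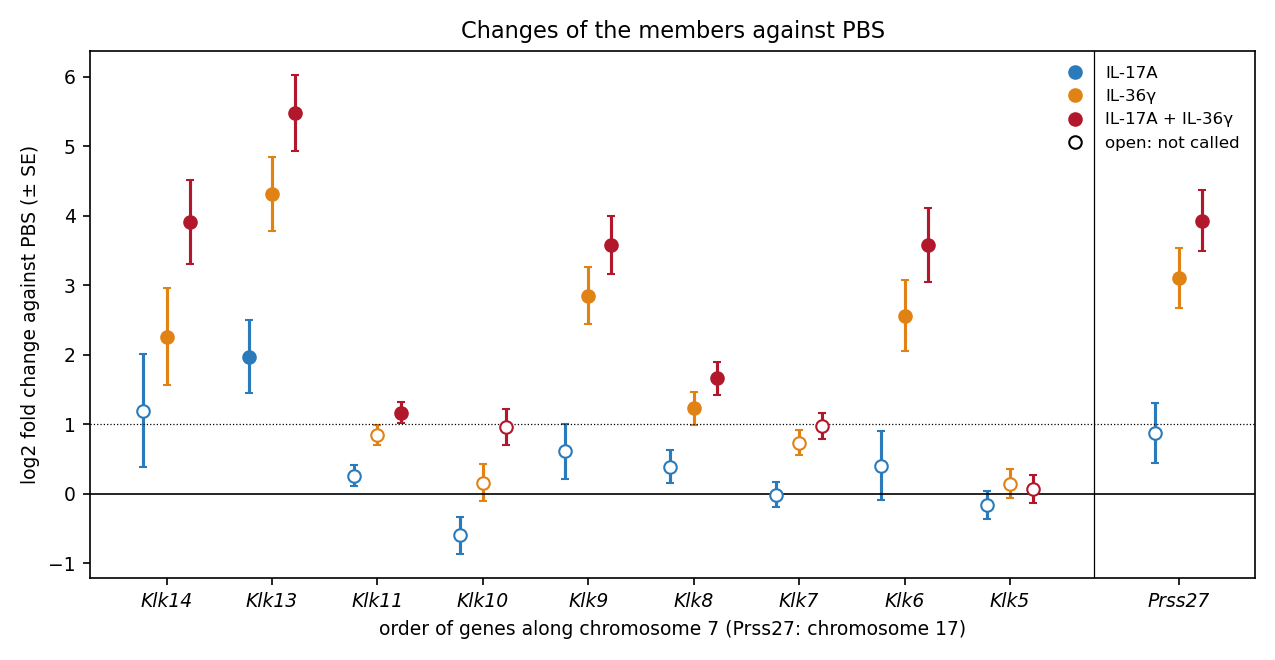
Log2 fold change against PBS (± SE, 3 mice per group) of each member for the 3 treatments, with the kallikreins in their order along chromosome 7 and Prss27 apart. Filled points passed an adjusted p-value of 0.05 and a log2 fold change of 1 (dotted line). The size of the change does not follow the order of the genes.

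The sequences upstream of the annotated starts are shown for Klk13, Klk9, Klk6 and Prss27, 4 of the 5 members with a log2 fold change above 3 in the combination (Klk14, with few reads, was left out), and, for contrast, for the abundant but less changed Klk7. They are taken from RefSeq on GRCm38.p6, from 250 bases before each start, without bases that lie in an annotated exon, and were chosen after the expression values were known. The windows are chr7:43712317-43712566 for Klk13, chr7:43791641-43791890 for Klk9, chr7:43824294-43824498 for the first start of Klk6, chr17:24037993-24038143 for Prss27 and chr7:43811044-43811293 for Klk7, all on the plus strand. Capitals mark letters that match C/EBP (TTNNGNAA, either strand) or, in Klk9, the stretch ending in TCCC that matches the NF-κB motif.
Klk13: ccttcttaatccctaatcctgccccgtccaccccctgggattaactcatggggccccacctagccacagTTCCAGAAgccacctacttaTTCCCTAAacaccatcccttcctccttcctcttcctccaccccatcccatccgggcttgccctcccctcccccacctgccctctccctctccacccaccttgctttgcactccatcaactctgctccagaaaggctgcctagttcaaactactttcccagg
Klk9: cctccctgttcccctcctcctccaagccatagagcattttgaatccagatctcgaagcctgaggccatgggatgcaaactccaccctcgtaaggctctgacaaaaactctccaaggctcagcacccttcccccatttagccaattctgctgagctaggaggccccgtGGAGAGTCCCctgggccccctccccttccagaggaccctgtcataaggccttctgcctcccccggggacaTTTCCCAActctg
Klk6: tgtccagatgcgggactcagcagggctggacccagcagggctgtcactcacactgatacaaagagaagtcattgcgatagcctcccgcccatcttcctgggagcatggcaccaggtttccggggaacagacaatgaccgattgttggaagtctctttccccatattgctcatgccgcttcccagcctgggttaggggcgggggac
Prss27: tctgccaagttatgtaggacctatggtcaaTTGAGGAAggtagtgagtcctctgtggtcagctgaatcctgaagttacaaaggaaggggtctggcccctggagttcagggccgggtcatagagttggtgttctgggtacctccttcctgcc
Klk7: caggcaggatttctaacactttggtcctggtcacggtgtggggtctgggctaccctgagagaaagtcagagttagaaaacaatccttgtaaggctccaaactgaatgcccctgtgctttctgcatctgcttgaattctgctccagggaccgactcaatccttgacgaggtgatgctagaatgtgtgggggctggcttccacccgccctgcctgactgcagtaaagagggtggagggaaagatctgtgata

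In all, 12 windows were found for the 10 genes and were searched on both strands over 250 bases for 6 motifs. C/EBP letters were in 6 of these windows, belonging to 5 genes (Klk13, Klk11, Klk9, Klk6 and Prss27), compared with 36.8% of 32851 mouse promoter windows of the same length. The Klk6 match lies in exon bases that are not printed, so its line carries no capitals. NF-κB letters were in 3 windows, of Klk9, Klk10 and Klk11 (all windows 7.25%), and STAT letters (TTCNNNGAA) in 1, of Klk10 (7.02%). AP-1 (TGANTCA, 6.75% of all windows), Grainyhead (AACCNGTT, 1.79%) and TATA box letters (TATAAA, 12.4%) were in none of the 12. Thus Klk5, Klk7, Klk8 and Klk14 held none of the 6 motifs in these windows, and among the genes with C/EBP letters are both strongly changed members and Klk11. Such matches are a description of the letters and not of bound sites.

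Other genes of the pathway were counted by lists. Of 28 further kallikrein genes, mostly of the Klk1 group, only Klk12 had enough reads to be tested. Of 17 other epithelial serine proteases, all tested, 3 rose and none fell after the combination, with a median log2 fold change of 0.19. The raised ones were Tmprss11d (4.16 ± 0.50), Tmprss11a (3.80 ± 0.59) and Tmprss11g (1.44 ± 0.24), membrane-anchored trypsin-like proteases, of which the first 2 were at 0.253 and 0.504 CPM in PBS. The membrane protease St14 (matriptase), which can activate other epidermal proteases, was at 49.9 CPM in PBS and 49.6 CPM after both, with a log2 fold change of −0.0069 ± 0.11 (adjusted p = 0.967).

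Of 15 protease inhibitors 8 were tested, of which 2 rose and 1 fell after the combination (median 0.76). Slpi, a secreted inhibitor of leukocyte and epithelial serine proteases, rose from 4.22 to 51.5 CPM (log2 fold change 3.60 ± 0.52, adjusted p = 0.000227). Spink12, a Kazal-type inhibitor, rose from 0.339 to 3.74 CPM (3.42 ± 0.61, adjusted p = 0.000914). Serpina12 (vaspin), a serpin that inhibits Klk7, fell from 162 to 44.6 CPM (−1.86 ± 0.27, adjusted p = 0.00024) and had already been called lowered after IL-36γ alone (−1.11 ± 0.26, adjusted p = 0.00949). Spink5, whose product LEKTI inhibits Klk5, Klk7 and Klk14, was at 1001 CPM in PBS and 907 CPM after both, with a log2 fold change of −0.14 ± 0.13 (adjusted p = 0.377).

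Of 10 receptors and substrates 9 were tested, of which 2 rose and 1 fell (median 0.37). Flg, encoding profilaggrin, rose by 2.03 ± 0.48 and Dsg1b, a desmoglein of the upper epidermis, by 1.11 ± 0.14 on the log2 scale. F2rl2, a protease-activated receptor at 1.16 CPM in PBS and 0.57 CPM after both, fell by 1.03 ± 0.22 on that scale. The related receptors F2r (−0.52 ± 0.09, adjusted p = 0.000613) and F2rl1 (−0.34 ± 0.08, adjusted p = 0.00653) were lower by adjusted p-value but within the fold threshold. F2rl3 had 0.37 ± 0.45 (adjusted p = 0.528). The corneodesmosomal substrates Cdsn (0.99 ± 0.25, adjusted p = 0.00673) and Dsc1 (0.98 ± 0.15, adjusted p = 0.000344) were higher by adjusted p-value but below the fold threshold, while Dsg1a had −0.30 ± 0.12 (adjusted p = 0.0578).

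**Figure D4:**
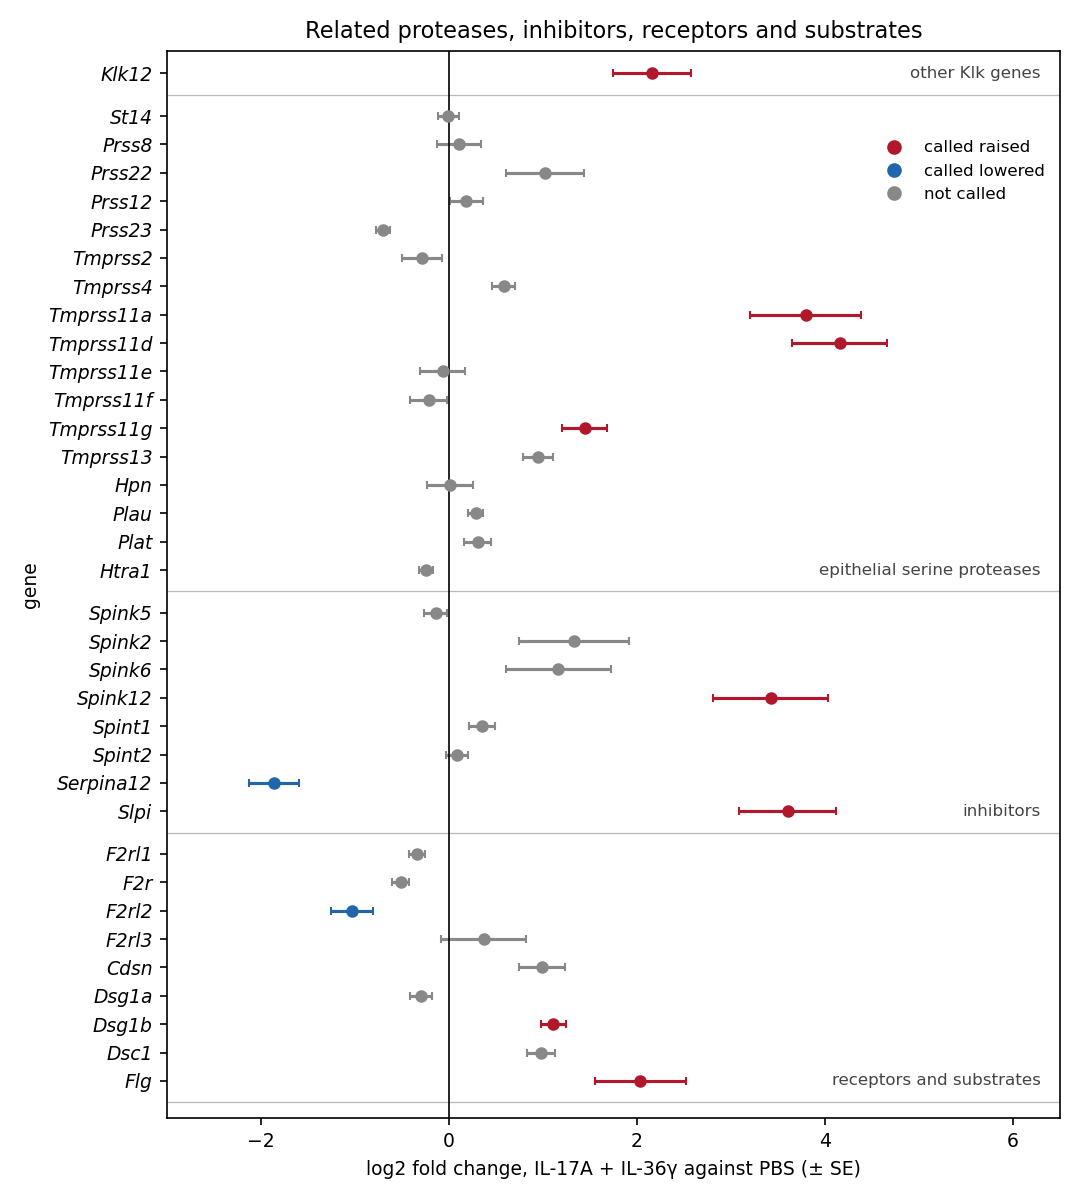
Log2 fold change (± SE, 3 mice per group) for IL-17A + IL-36γ against PBS of all tested genes of the 4 lists of related genes. Red points were called raised and blue ones lowered. Klk12, 3 Tmprss11 genes, Slpi, Spink12, Flg and Dsg1b are raised, and Serpina12 and F2rl2 lowered.

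The members varied together across the 12 libraries. The highest Pearson correlations of log2 CPM between members were 0.995 for Klk9 with Prss27, 0.988 for Klk6 with Klk9 and 0.981 for Klk13 with Prss27, and the lowest was 0.30 for Klk5 with Klk14. These values describe 12 libraries from 4 groups and largely carry the group means. Among the genes tested that were not members, the ones most like Klk13 were Cotl1 (0.998), Casp14 (0.997), a caspase of cornification, and Krt1 (0.994), the keratin of suprabasal cells. Most like Klk6 was Rptn (0.989), most like Klk9 and Prss27 was Glrx (0.993 and 0.988), most like Klk7 was Tmem40 (0.988), most like Klk8 was Cndp2 (0.991) and most like Klk11 was Rnf4 (0.991). The highest values were lower for Klk14 (0.969, Slc25a10), Klk10 (0.961, Pigo) and Klk5 (0.945, Spire1).

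Within groups single mice stood apart for many members at once. PBS replicate 1 was above its group mean for 10 of 10 members, with a median deviation of 0.53 on the log2 scale, and replicate 1 of the combination likewise for 10 of 10 (0.56). IL-36γ replicate 3 was above its group mean for 0 of 10 (−0.37). No share of all genes was computed beside these counts, and genes that vary together are not separate observations. In PBS replicate 1 the summed level of 10 skeletal muscle genes was 458.5 CPM, compared with 3837 and 3334 CPM in the other PBS mice, and that of 8 suprabasal keratinocyte genes 31368 CPM, compared with 19903 and 20650. The part of these levels in the member values was not tested. Without PBS replicate 1 the combination against PBS gave 9 raised members in place of 7, with Klk7 (log2 fold change 1.17) and Klk10 (1.22) added. This was not particular to that mouse. Both genes were also added without replicate 2 of the combination (1.12 each), and Klk10 without its replicate 3 (1.10). With all libraries both lay just under the fold threshold (0.98 and 0.96). The share of all genes called in the fits with a library left out is not given here. The count of 9 can therefore not be set against all genes.

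Marker lists of the cells in the ear moved with the treatments as well. After the combination 3 of 8 suprabasal keratinocyte genes rose (Krt1 by 4.21 ± 0.43, Casp14 by 3.01 ± 0.28 and Ivl by 1.53 ± 0.17 on the log2 scale) and 1 fell (Flg2, by 2.17), with summed levels of 27673 to 28180 CPM beside 19903 to 31368 CPM in PBS. Of 7 basal keratinocyte genes 1 rose (Krt14, 1.38 ± 0.18) and 1 fell (Krt15, by 1.18), with 16330 to 20274 beside 9679 to 11599 CPM. That sum was mainly Krt14 (mean 3987 CPM in PBS, 10396 after both) and Krt5 (2973 and 5436). The median log2 fold change of the 7 genes was −0.09. Stress keratins rose for 3 of 4 genes, from 325 to 526 CPM in PBS to 6261 to 10593 CPM. Neutrophil markers rose for 8 of 8 genes, from 7.55 to 13.1 CPM to 97.2 to 199 CPM, and macrophage markers for 3 of 5, from 481 to 552 CPM to 876 to 1089 CPM. Skeletal muscle genes fell for 2 of 10, although their summed levels overlapped (281 to 1482 beside 459 to 3837 CPM in PBS). Cartilage genes fell for 2 of 4 tested of 5 (117 to 150 beside 203 to 298 CPM) and sebaceous gland genes for 1 of 6 (3070 to 3816 beside 5914 to 9612 CPM). The latter sum was mostly Scd1, the gene called (mean 6976 CPM in PBS, 3051 after both). Log2 fold changes of the 6 genes ran from −1.19 to −0.08. None of the 6 tested of 7 inner root sheath genes of the hair follicle passed (14.2 to 24.6 beside 36.3 to 49.2 CPM). The part of these shifts in the differences of the members was not tested.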

How the data were processed

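Ear RNA of 12 mice was sequenced. The authors deposited raw counts per Ensembl gene. Their aligner and counter were STAR 2.5.2b and Subread 1.5.1 (featureCounts), according to the submitters' processing notes. Libraries were prepared with a strand-specific total RNA kit after depletion of ribosomal RNA. Depth ranged from 25293468 to 34759293 counts. Columns of the deposited tables that hold fold changes and p-values were used only for the pairing of identifiers with symbols.

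Counts were filtered (filterByExpr, minimum count 10), scaled by TMM and fitted with the quasi-likelihood test of edgeR 4.0.16 in R 4.3.3, with 4 group means over all 12 libraries. P-values were adjusted (Benjamini-Hochberg) over 19408 genes. The script was tested on simulated data. Gene models were those of GENCODE vM21 (GRCm38). Replicates are separate mice.

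All 10 members, list genes called after the combination and the genes outside the member list most correlated with each member (log2 CPM, prior count 2) were named by rule. Spink5, St14, Cdsn, Dsc1, Dsg1a, Flg2 and other genes named beyond it were chosen for their known role or after their values were seen. Members and lists were chosen with earlier results of these data known. Alternatives were DESeq2 1.42.0, other scaling, no filter, no fold threshold, only the groups compared, a replicate block and omission of each library.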

Additional observations from a re-analysis of the deposited data

How the results depend on the processing

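Of 1247 member results under alternatives, 1177 kept their direction and their side of the threshold, 20 lost a call, 17 gained one and 33 changed sign. The number of raised members was unchanged within 1.5-fold for IL-36γ against PBS (5 to 6 when single libraries were left out) and for the combination against PBS (7 to 9) and against IL-17A (7 to 8). For IL-17A against PBS it was 0 when only the groups compared were fitted and 0 to 1 when single libraries were left out. For IL-36γ against IL-17A it was 7 without a fold threshold (4.37% of all genes) and 0 to 5 when single libraries were left out. For the interaction it was 1 without the filter on low counts and 1 in DESeq2. Apart from the fit without a fold threshold, the share of all genes called in these alternatives is not given here. The same holds for the replicate block below, so these counts cannot be set against all genes.

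The deviations of same-numbered mice had correlations of −0.20 to 0.35 (median 0.097, 18 pairs). Those of differently numbered mice had correlations of −0.50 to 0.36 (median −0.050, 36 pairs). The ranges overlap, and the deviations are taken from means of few mice. Whether the numbers pair the mice can therefore not be decided from these values. With a replicate block the count against PBS was 1 (IL-17A), 6 (IL-36γ) and 7 (combination), and it was 7 for the combination against IL-17A, 0 for the combination against IL-36γ, 4 for IL-36γ against IL-17A and 0 for the interaction. With it the log2 fold change of Klk7 for IL-17A against PBS was 0.0072.

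Scaling by library size alone moved the median of all genes by more than 0.1, to −0.13, −0.16 and −0.17 in the 3 comparisons with PBS, where the members had medians of 0.22, 1.60 and 2.48. It gave −0.068 for Klk5 in the combination against PBS and 0.12 for the interaction of Prss27. Leaving out single libraries changed the sign of small, uncalled values. For IL-17A against PBS the log2 fold changes ran from −0.34 to 0.14 for Klk5, from −0.39 to 0.83 for Klk6 and from −0.12 to 0.18 for Klk7. For IL-36γ against PBS they ran from −0.026 to 0.44 for Klk5 and from −0.030 to 0.42 for Klk10. For Klk5 they ran from −0.095 to 0.37 in the combination against PBS and from −0.19 to 0.084 against IL-36γ. Interactions ran from −0.21 to 0.28 for Klk5, −0.28 to 0.24 for Klk8, −0.28 to 0.53 for Klk9, −0.082 to 0.17 for Klk11, −0.11 to 1.04 for Klk14 and −0.48 to 0.31 for Prss27. The causes of these changes were not tested. With 3 mice per group, the confidence intervals set what could be detected, and Klk14 rests on at most 41 reads per library.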
